A study of Mus musculus with 4 samples.

Results

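Mixed-marker barcodes are droplets of the mouse mammary epithelium in which transcripts of the basal layer and of a luminal lineage were counted under the same cell barcode. They were chosen by measured values: a barcode belonged to the set when it held at least 1 count of at least 4 of 7 basal genes (Krt5, Krt17, Acta2, Myl9, Tagln, Mylk and Cnn1) and at least 1 count of at least 3 genes of a luminal list. The luminal progenitor (LP) list had 5 genes (Cd14, Lalba, Plb1, Atp6v1b1 and Aldh1a3) and the mature luminal (ML) list had 6 (Stc2, Upk3a, Plac8, Tspan1, Prlr and Cited1). The rule found 149 of 10596 barcodes (1.41%). Of these, 39 held the LP genes only (basal-LP barcodes), 104 held the ML genes only (basal-ML barcodes) and 6 held both.

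The ducts of the mammary gland have an outer layer of basal, or myoepithelial, cells that contract around an inner layer of luminal cells. Luminal progenitors give rise to the milk-secreting alveolar cells, and mature luminal cells sense steroid hormones. In the adult gland the keratins and contractile proteins of the basal layer and the keratins of the luminal layer are normally held in separate cells, so that a barcode with both can hold a single cell with both programmes or RNA of more than 1 cell. In droplet capture, 2 cells in the same droplet (a doublet) share a barcode, and their counts add.

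All samples were total epithelium of untreated FVB/NJ mice, sorted as a CD24-positive, lineage-negative population with the glands of 2 mice pooled for each adult phase, captured on the 10X Chromium system and sequenced from the 3' end. There was 1 library at each stage: puberty at 5 weeks of age, and adults at 10 weeks in estrus and in diestrus, the age of the adults being that of the study's adult glands. The tables held 5428, 2729 and 2439 barcodes, in that order, with medians of 4103, 3236 and 3974 counts per barcode and totals of 25365324, 10962454 and 11868593 counts. The labels state 5387 cells for puberty and the same numbers as the tables for the adult libraries. A second puberty table shared 5387 barcodes with the first and held the same cells, so it entered no summary. At most 24 barcodes were shared between any other tables, and none was mixed-marker in both. With a single library at each stage no difference between stages could be tested: all intervals below are exact 95% intervals that cover counting error only. Series of 3 values are in the order puberty, estrus, diestrus throughout.

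Mixed-marker barcodes were found at all 3 stages. Puberty had 85, or 1.57% of its barcodes (interval 1.25 to 1.93%). Estrus had 29, or 1.06% (0.713 to 1.52%), and diestrus 35, or 1.44% (1.0 to 1.99%). Of all barcodes that passed the basal threshold, the puberty members were 7.26% (5.84 to 8.90%), the estrus members 2.19% (1.47 to 3.13%) and the diestrus members 3.28% (2.29 to 4.53%). Barcodes with at least 4 basal genes and fewer than 3 genes of each luminal list, here called reference basal cells, were 1086, 1295 and 1033, which is 20%, 47.5% and 42.4% of the barcodes. The share among barcodes past the basal threshold depends on this basal share, which was smallest in puberty, and as a share of all barcodes the intervals of the 3 libraries overlapped. The reference LP cells, with the LP genes alone, numbered 1120, 335 and 293, and the reference ML cells 2138, 798 and 669.

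At the measured depth, the luminal partners were found in shares near those of the luminal cells themselves. The basal-LP barcodes numbered 24, 8 and 7, and the basal-ML barcodes 58, 20 and 26. Among barcodes with a single luminal partner, ML partners made up 70.7% (59.6 to 80.3%), 71.4% (51.3 to 86.8%) and 78.8% (61.1 to 91.0%). The ML share of the reference luminal cells was 65.6%, 70.4% and 69.5%, inside each interval.

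Barcodes lay on each side of the rule's limits. Over the 3 libraries, 2849 barcodes with at least 4 basal genes held no gene of either luminal list, 508 held at most 1 gene of either list and 57 at most 2, and these last lie just outside the rule. Just inside it were 53 with 3 luminal genes, and 96 had 4 or more. From the luminal side, 4578 barcodes with at least 3 genes of a luminal list held no basal gene, 891 held 1, 120 held 2 and 14 held 3, just outside, while 17 with exactly 4 basal genes lay just inside. Most of the set was far from the basal limit, since 97 of the 149 held 6 or all 7 basal genes. Few barcodes with a luminal programme lay at the basal limit, and more lay at the luminal limit, with similar numbers on its sides.

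**Figure D1:**
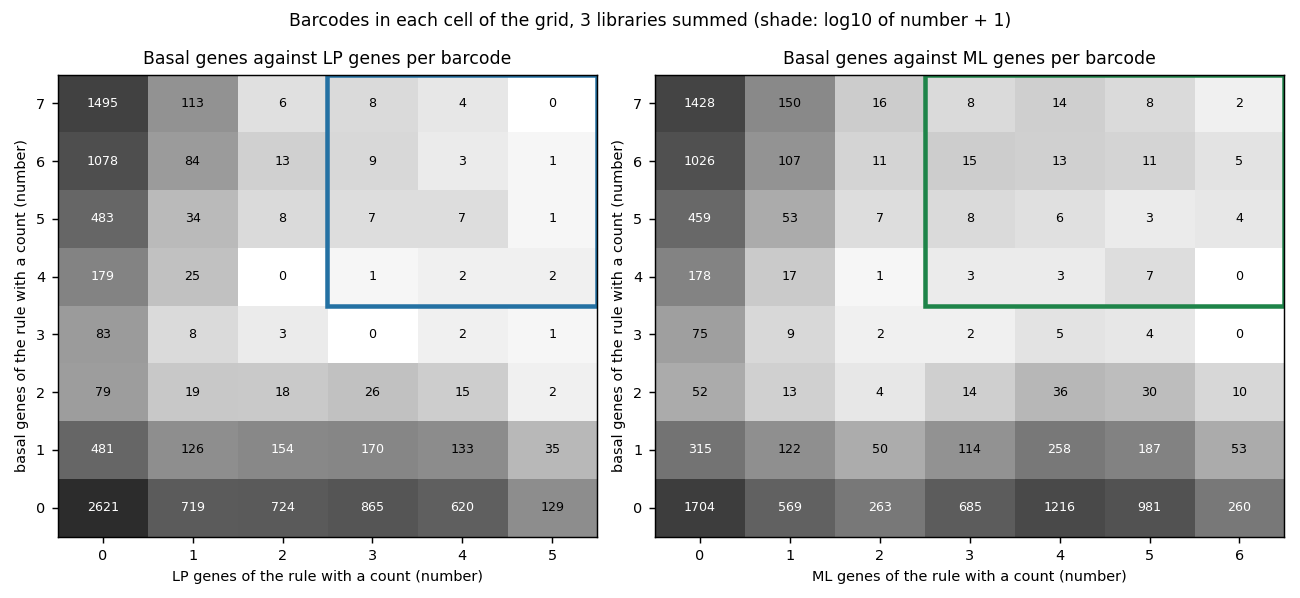
Number of barcodes by how many of the 7 basal genes (vertical axis) and how many of the LP or ML genes (horizontal axis) had a count, with the 3 libraries summed and the shade on a log scale. Most barcodes lie along the axes, and the 149 mixed-marker barcodes fill the upper right of the grids.

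The genes that defined the set were mostly counted below their level in the reference cells of each lineage. These values chose the barcodes and are given as a description. Summed over the rule's basal genes, the ratio to reference basal cells was 0.77 ± 0.14 (SD, n = 3 libraries) in basal-LP and 0.74 ± 0.12 in basal-ML barcodes. Krt5, the keratin that marks the basal layer (chr15:101707070-101712898, GRCm38), was counted at 0.583, 3.12 and 2.29 counts per barcode in basal-LP barcodes and at 1.31, 2.25 and 1.81 in basal-ML barcodes, against 1.48, 2.56 and 2.31 in reference basal cells. The puberty basal-LP barcodes held the fewest Krt5 counts. Acta2, smooth muscle actin (chr19:34241090-34255590), was at 25, 43.4 and 31.6 counts per barcode with an LP partner and 32.3, 37.5 and 31.8 with an ML partner, below the 40.6, 51.9 and 50.4 of reference basal cells. Acta2 was counted in 5.94%, 10.7% and 16.0% of reference ML cells, at 0.0870, 0.135 and 0.181 counts per cell. Those cells were chosen for holding fewer than 4 basal genes, and the source of their Acta2 counts was not tested. In mixed-marker barcodes it ranged from 1 to 134 counts.

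The luminal genes of the rule followed the partner by construction. Cd14, a co-receptor for bacterial lipopolysaccharide that marks luminal progenitors, was at 6.38, 13.6 and 8.71 counts per barcode in basal-LP barcodes and at 0.466, 0 and 0.269 in basal-ML barcodes, against 7.45, 7.53 and 6.95 in reference LP cells. The diestrus mean rested on 1 barcode with 46 of the 61 counts, and Cd14 had a count in 9 of the 58 puberty basal-ML barcodes. Stc2, a secreted glycoprotein hormone, was at 6.90, 3.5 and 3.85 counts per barcode in basal-ML barcodes and at 0, 0 and 0.143 in basal-LP barcodes, against 7.51, 4.81 and 5.26 in reference ML cells. Prlr, the prolactin receptor, was at 4.86, 8.25 and 4.73 counts per basal-ML barcode and 4.77, 7.49 and 4.72 per reference ML cell. Lalba, a milk protein that takes part in lactose synthesis, was at 19.5, 10.4 and 2.71 counts per basal-LP barcode, below the 23.3, 17.8 and 14.7 of reference LP cells in each library.

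Basal genes that the rule did not use were also counted in the mixed-marker barcodes. A list of 10 further basal genes (Krt14, Myh11, Actg2, Tpm2, Sparc, Cxcl14, Trp63, Oxtr, Dkk3 and Vim) summed to 29.9, 86.5 and 47.3 counts per basal-LP barcode and to 35.4, 63.8 and 35.7 per basal-ML barcode, against 44.4, 70.8 and 52.7 in reference basal cells. Reference LP cells held 0.179, 0.284 and 0.628 counts of the list and reference ML cells 0.220, 0.276 and 0.353. Relative to reference basal cells, the list stood at 0.93 ± 0.28 (SD, n = 3 libraries) in basal-LP barcodes and 0.79 ± 0.11 in basal-ML barcodes. The means were thus below 1, by less than 1 SD with an LP partner and by more than 1 SD with an ML partner.

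The 10 pan-luminal genes (Krt8, Krt18, Krt19, Krt7, Epcam, Cldn3, Cldn4, Cldn7, Wfdc2 and Elf3) summed to 105, 85.8 and 60.9 counts per basal-LP barcode, against 101, 93.0 and 82.3 per reference LP cell. They summed to 152, 131 and 82.3 per basal-ML barcode, against 163, 153 and 117 per reference ML cell. The ratio to the reference luminal cells was 0.90 ± 0.15 (SD, n = 3 libraries) with an LP partner and 0.83 ± 0.11 with an ML partner. Reference basal cells held only 7.89, 6.83 and 6.51 counts of these genes. In each partner group the lowest ratio was that of diestrus.

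Krt14 and Krt18 show both keratin programmes in the same barcodes. Krt14, the basal keratin that pairs with Krt5, had a count in 88.2% of the puberty members (79.4 to 94.2%), 96.6% of the estrus members (82.2 to 99.9%) and 94.3% of the diestrus members (80.8 to 99.3%). Its level was 9.38, 33.5 and 18.6 counts per basal-LP barcode and 12.5, 21.2 and 11.1 per basal-ML barcode, against 17.3, 24.2 and 17.2 in reference basal cells. Krt18, a luminal keratin, had a count in all 149 barcodes, at 45.2, 30.4 and 22.1 counts per basal-LP barcode and 51.7, 44.0 and 26.6 per basal-ML barcode. Reference basal cells held 1.53, 1.73 and 0.917 counts of Krt18. Krt14 had a count in 3.18%, 7.64% and 7.92% of reference ML cells. Those cells were chosen for few basal genes and the mixed-marker barcodes for many, so this gap follows largely from the rule. With every cell thinned to 2000 counts, the Krt14 share among the members was 78.9%, 95.4% and 81.7%.

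The luminal identity outside the rule also followed the partner. The 10 further LP genes (Elf5, Kit, Csn3, Trf, Wfdc18, Ltf, Mfge8, Hp, Cd55 and Lcn2) summed to 253, 168 and 104 counts per basal-LP barcode and to 12.9, 7.85 and 11.5 per basal-ML barcode, while reference LP cells held 242, 182 and 143. Elf5, a transcription factor of the secretory lineage, was at 1.33, 2.12 and 0.714 counts per basal-LP barcode and at 1.36, 2.46 and 1.91 in reference LP cells. Trf, which encodes the iron carrier transferrin, was at 131, 73.0 and 43.6 counts per basal-LP barcode and at 123, 91.9 and 62.5 in reference LP cells. The list stood at 0.90 ± 0.16 (SD, n = 3 libraries) of its level in reference LP cells, a distance from 1 of less than 1 SD.

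The 10 further ML genes (Areg, Pgr, Esr1, Foxa1, Ly6d, Ptn, Cxcl15, Wnt4, Prom1 and Ly6a) summed to 85.9, 89.8 and 67.8 counts per basal-ML barcode and to 3.46, 3.12 and 3.57 per basal-LP barcode, while reference ML cells held 89.5, 84.8 and 78.2. Their ratio to the reference ML cells was 0.96 ± 0.10 (SD, n = 3 libraries). Ptn, a secreted growth factor, was at 44.3, 58.4 and 42.4 counts per basal-ML barcode against 45.7, 54.9 and 50.9 in reference ML cells. Areg, an EGF-family ligand induced by estrogen, was at 16.6, 3.60 and 4.58 counts per basal-ML barcode against 16.0, 3.29 and 9.81. The puberty level of Areg was thus the highest in the mixed-marker barcodes as in the reference ML cells.

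Basal and luminal genes outside the rule were also counted together within single barcodes. The rule required genes of both lineages in each barcode and chose reference cells for few genes of the other lineage. The contrast with the reference cells thus follows largely from the rule and is given as a description. The share of basal counts, in the sum of the further basal and pan-luminal genes, had medians of 22.9%, 48.4% and 47.6% in basal-LP barcodes and of 22.4%, 35.8% and 30.1% in basal-ML barcodes. Reference basal cells had medians of 88.5%, 92.4% and 92.0%, and reference LP and ML cells had a median of 0. Between 20 and 80% basal counts lay 29 of 39 basal-LP barcodes, 67 of 104 basal-ML barcodes, 0 of 1748 reference LP cells (which allows up to 3) and 2 of 3605 reference ML cells. By library this was 58.3%, 100% and 100% of basal-LP and 53.4%, 80% and 76.9% of basal-ML barcodes, against 24.2%, 6.02% and 9.97% of reference basal cells. Every pair of 1 reference basal and 1 reference luminal cell of the same library was then summed, to give the values that a doublet would have. The pairs had medians of 29.4%, 42.3% and 39.1% with an LP cell and of 21.0%, 31.0% and 30.3% with an ML cell. Of the pairs, 72.2%, 89.4% and 85.9% with an LP cell and 52.9%, 77.1% and 76.4% with an ML cell lay between 20 and 80%.

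**Figure D2:**
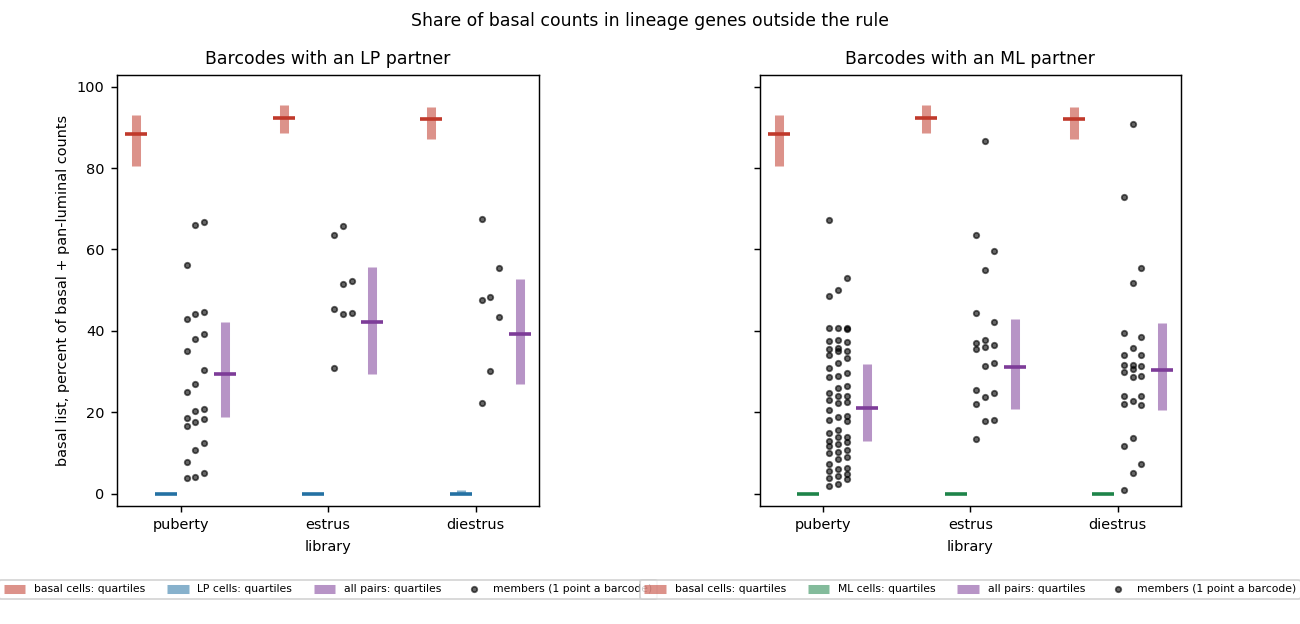
Share of basal counts in the sum of 10 basal and 10 pan-luminal genes outside the rule (vertical axis, percent) in each library, for reference basal and luminal cells and all pairs of them (bars: quartiles) and for each mixed-marker barcode (points). Most points lie between the medians of the reference lineages, with medians of 22.4 to 48.4%, while single diestrus basal-ML barcodes reach down to 0.980% and up to 90.9%.

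The barcodes were deep, which the rule favours because more counts show more genes. The median total was 7047 counts in puberty, 6203 in estrus and 6539 in diestrus, over ranges of 3404 to 19321, 2540 to 12446 and 2253 to 19278. Reference basal cells had medians of 2908, 2555 and 3427 counts, reference LP cells 4190, 3665 and 4515, and reference ML cells 4854, 4272 and 4559. Of the 143 barcodes with 1 luminal partner, 137 were above the median of the reference basal cells, and 6 (1 in estrus and 5 in diestrus) were below the medians of both parent lineages. Barcodes with both LP and ML genes but few basal genes, which do not belong to the set, were as deep, at 7058, 6681 and 7229 counts.

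By their medians, mixed-marker barcodes held fewer counts than the sum of a basal and a luminal cell, with wide overlap. Above the median of the pairs of their library lay 13 of 39 basal-LP and 32 of 104 basal-ML barcodes. Pairs with an LP cell had median totals of 7700, 6732 and 9054 counts, against 7001, 6065 and 5823 in the basal-LP barcodes. Pairs with an ML cell had medians of 8427, 7352 and 9155, against 6945, 6664 and 6168 in the basal-ML barcodes. The median was 0.82 ± 0.15 (SD, n = 3 libraries) of that of the pairs with an LP partner and 0.80 ± 0.12 with an ML partner. In genes detected the ratio was 0.89 ± 0.13 and 0.87 ± 0.07. Each of these means was below 1 by more than 1 SD except that of the genes in basal-LP barcodes, and diestrus gave the lowest ratio of total counts with each partner (0.643 and 0.674). The 6 barcodes with both luminal partners were deeper still, with medians of 10174, 12446 and 14973 counts.

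**Figure D3:**
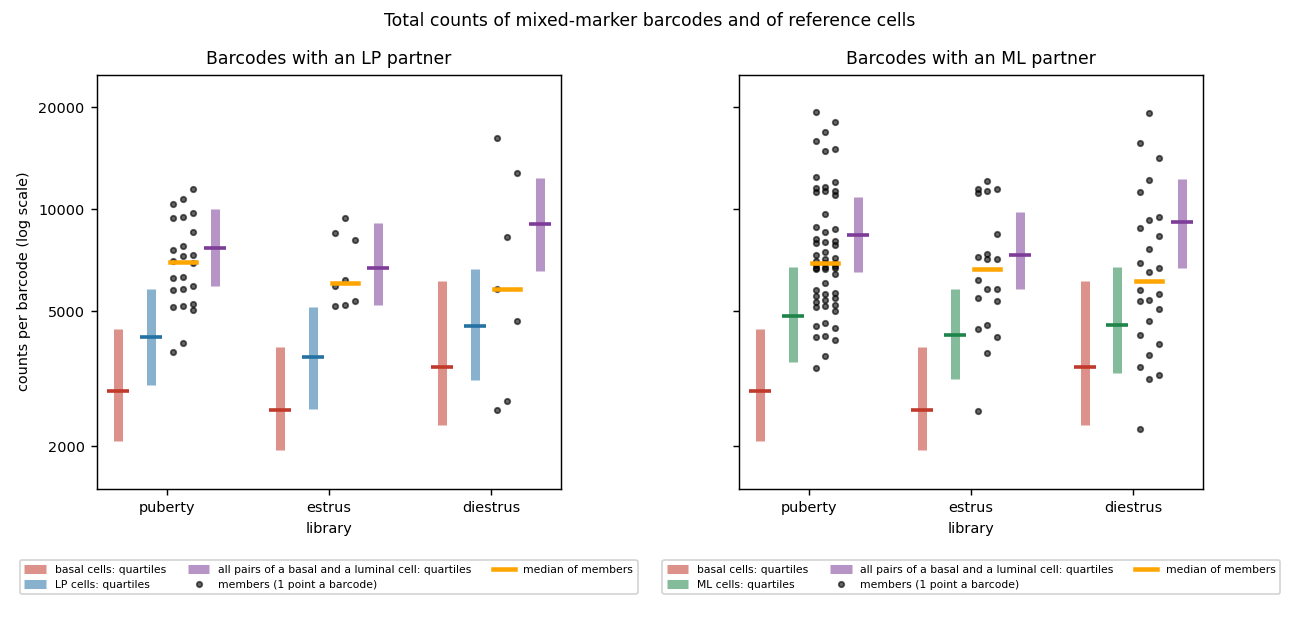
Counts per barcode (vertical axis, log scale) in each library for reference basal and luminal cells and all pairs of them (bars: quartiles) and for each mixed-marker barcode (points, with orange lines at their medians). The medians of the mixed-marker barcodes, 5823 to 7001 counts, lie above those of the reference cells and below those of the pairs.

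Across genes the profile of the mixed-marker barcodes was close to the sum of the 2 lineages. For each gene, the CPM (counts per 1e6 counts) over the barcodes were divided by the CPM of a mean basal cell plus a mean luminal cell, with 1 CPM added to each, among genes at 50 CPM or more on either side in every library. A gene was called when it differed by at least 2-fold in the same direction in 3 of 3 libraries. This is a fixed rule of size and not a test. In basal-ML barcodes 2477 genes were compared and no gene was called higher (0%) or lower (0%), while 94.2% of them lay within 2-fold in every library. In basal-LP barcodes 2359 genes were compared, 2 were called higher (0.0848%) and 7 lower (0.297%), and 70.3% lay within 2-fold in every library. These small counts depend on each library: without puberty, estrus or diestrus, 60, 10 and 17 genes were called higher and 46, 16 and 18 lower in basal-LP barcodes, and 2, 1 and 1 higher and 3, 1 and 7 lower in basal-ML barcodes. With no filter on low values 1612 genes were called lower in basal-LP barcodes.

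The 9 genes called in basal-LP barcodes rested on few counts. Higher were Kdm6b, a histone demethylase, with 17, 5 and 6 counts (log2 ratio 1.80 ± 0.29, SD, n = 3 libraries), and Cgnl1, a junction protein, with 9, 4 and 3. Lower were Bambi, Copb1, Ddit4, Kcnn4, Mgp, Serpinf1 and Zfp622, each with at most 9 counts in a library. None of them is in the gene lists described here, which are short and do not hold every lineage gene. The study itself lists Kcnn4 among its luminal and Serpinf1 among its basal signature genes. Among the 339 genes with at least 20 counts in the barcodes or expected from the sum in every library, 0 were called in either direction (0%) and 319 (94.1%) lay within 2-fold in all 3. Among the 1204 such genes in basal-ML barcodes 0 were called and 1189 (98.8%) lay within 2-fold. The basal-LP barcodes gave only 172503, 54004 and 53114 counts in all, and the basal-ML barcodes 471478, 143207 and 192593.

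The lineage lists had medians near that of all genes, with single genes farther away. The median log2 ratio over all genes compared was -0.10 with an LP partner and -0.04 with an ML partner. In basal-LP barcodes, 7 of 10 basal genes were compared, with a median of 0.14, and 9 of 10 pan-luminal genes, with a median of -0.12. The 8 LP genes compared had a median of -0.17. In basal-ML barcodes, the 7 basal genes compared had a median of -0.11, the 9 pan-luminal genes -0.11 and the 5 ML genes 0.09. None of these genes was called. The lowest was Elf3, a luminal transcription factor, at -0.94 ± 1.12 (SD, n = 3 libraries) with an LP partner, on 3, 8 and 3 counts. Myh11, a smooth muscle myosin, was at 0.49 ± 0.18 (SD, n = 3 libraries) with an LP partner and 0.19 ± 0.18 with an ML partner, and Krt8, a luminal keratin, was at 0.07 ± 0.04 and -0.12 ± 0.08. Krt19, another luminal keratin, was at -0.34 ± 0.13 and -0.22 ± 0.16.

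**Figure D4:**
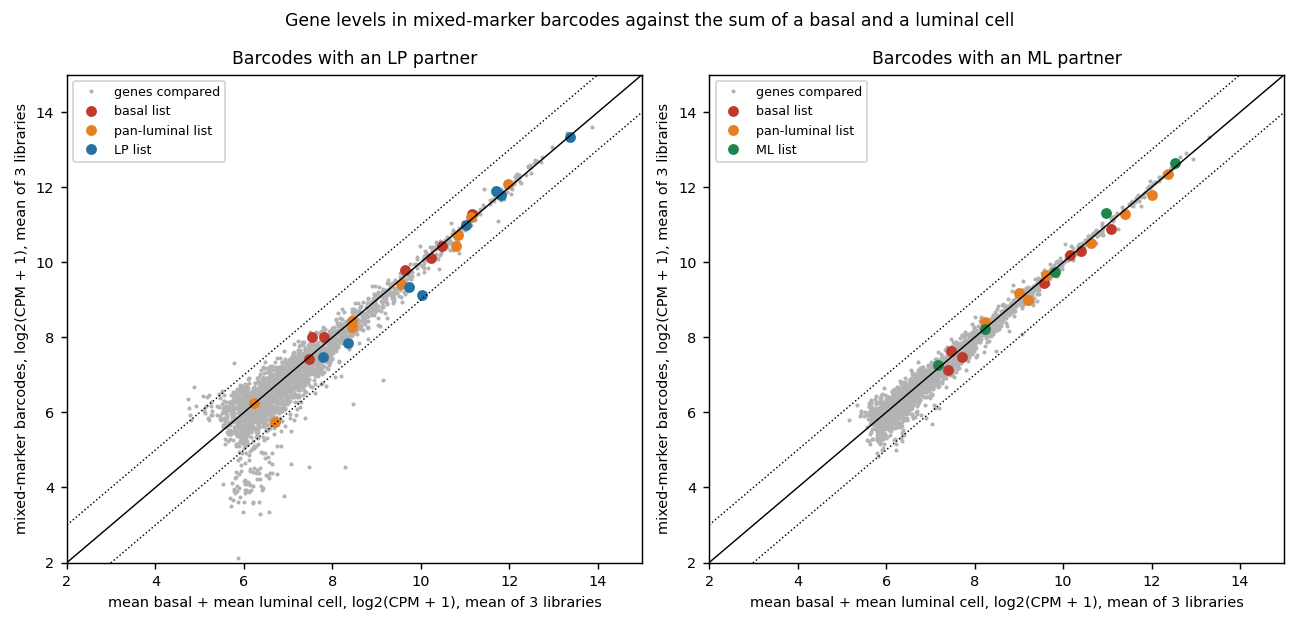
Gene levels in mixed-marker barcodes (vertical axis) against the sum of a mean basal and a mean luminal cell (horizontal axis), both as log2(CPM + 1) averaged over 3 libraries, for barcodes with an LP or an ML partner. Most genes lie near the diagonal, 94.2% of the 2477 genes within 2-fold in every library with an ML partner and 70.3% of 2359 with an LP partner.

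Some genes with at least 20 counts in the barcodes, or expected from the sum, in every library leaned the same way in all 3 libraries without reaching 2-fold in each. In basal-LP barcodes Csn2, beta-casein, was at a log2 ratio of 0.52 ± 0.30 (SD, n = 3 libraries), with 1691, 306 and 58 counts, of which single barcodes held up to 1283, 269 and 32. Neat1, a long noncoding RNA of nuclear paraspeckles, was at 0.48 ± 0.30, and Zfp36l1, an RNA-binding protein, at 0.41 ± 0.23. Chil1, a chitinase-like secreted protein, was at -2.27 ± 1.75, with 63, 6 and 2 counts and log2 ratios of -0.68, -1.99 and -4.15. Hspa5, a chaperone of the endoplasmic reticulum, was at -0.44 ± 0.04. The other genes named by the same rule were Ywhah and Vamp8 (0.33 and 0.32) on the higher side and Eif3e, 1500015O10Rik and Hnrnpk (-0.51, -0.84 and -0.43) on the lower.

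In basal-ML barcodes the same rule named Dst, which links the cytoskeleton to hemidesmosomes, at 0.62 ± 0.11 (SD, n = 3 libraries), and Klf4, a transcription factor, at 0.52 ± 0.21. Atxn7l3b, Klc3 and Arpc4 were at 0.49, 0.43 and 0.43. On the lower side were Stmn1, a regulator of microtubules that is high in dividing cells, at -0.55 ± 0.21, and Tuba1c, an alpha tubulin, at -0.53 ± 0.13. Serpinb5, a serpin that myoepithelial cells express, was at -0.51 ± 0.11, and Cnn2 and Psmd2 were at -0.50 and -0.38. All of these differences were under 2-fold.

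Set against either lineage alone, the contrast is the one the rule used, so the following counts are a description and nothing is read from them. Basal-LP barcodes had 98 of 2539 genes called higher (3.86%) and 66 lower (2.6%) than reference basal cells, and 85 of 2276 higher (3.73%) and 9 lower (0.395%) than reference LP cells. Basal-ML barcodes had 114 of 2570 higher (4.44%) and 83 lower (3.23%) than reference basal cells, and 90 of 2482 higher (3.63%) and 4 lower (0.161%) than reference ML cells. All 7 basal genes compared with the luminal references were among the higher genes in each partner group. Against reference basal cells, the higher genes held 7 of 7 pan-luminal and 7 of 7 LP genes in basal-LP barcodes, and 8 of 9 pan-luminal and 5 of 5 ML genes in basal-ML barcodes. The lower genes held 0 of 9 further basal genes in basal-LP barcodes and 6 of 9 in basal-ML barcodes. Over genes, the correlation with the summed profile was 0.945, 0.824 and 0.840 in basal-LP and 0.980, 0.953 and 0.967 in basal-ML barcodes, and with reference basal cells alone 0.774, 0.671 and 0.733, and 0.796, 0.750 and 0.829. With the reference luminal cells alone it was 0.845, 0.677 and 0.731 in basal-LP and 0.852, 0.781 and 0.822 in basal-ML barcodes. These are correlations across genes, which are not independent replicates.

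The number of mixed-marker barcodes was set against the sizes of the lineages. If every barcode were a random pair of cells drawn from the library's classes, a number equal to 2 times the product of the class shares times the barcodes would be mixed. The basal-LP barcodes came to 5.36% of that number (3.43 to 7.97%) in the puberty library, 2.52% (1.09 to 4.96%) and 2.82% (1.13 to 5.81%) in the adult libraries. The basal-ML barcodes came to 6.78% (5.15 to 8.76%), 2.64% (1.61 to 4.08%) and 4.59% (3.0 to 6.72%). Within each library the intervals for the partners overlapped. Barcodes with LP and ML genes came to 14.5% (12.1 to 17.2%), 36.2% (28.3 to 45.7%) and 31.7% (23.6 to 41.7%), above the intervals of both basal combinations in each library.

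**Figure D5:**
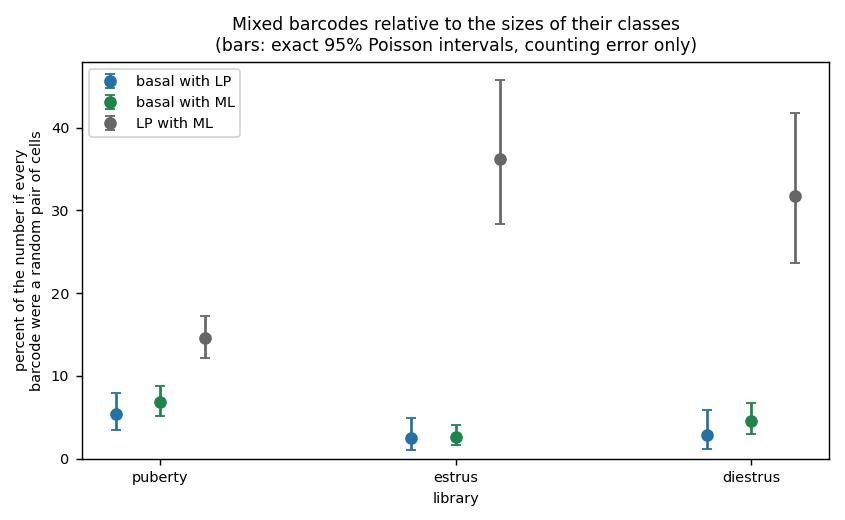
Mixed barcodes as a percentage of the number there would be if every barcode were a random pair of cells (vertical axis), in each library (horizontal axis), with exact 95% Poisson intervals as bars. The basal combinations lie between 2.52 and 6.78%, and the LP with ML combination between 14.5 and 36.2%.

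Transcripts reported for mixed-lineage basal cells were counted next. The list taken here holds 11 of the luminal genes that the study names in such cells (Kit, Areg, Ehf, Csn1s2a, Csn2, Csn3, Elf5, Muc1, Esr1, Cdh1 and Krt19), and leaves out others, among them the rule's own Prlr, Cited1, Stc2, Cd14 and Lalba. The study chose these genes partly on its own samples from another platform. It also named some of them, Areg and Krt19, in pubertal cells captured on the platform used here. The list is thus independent neither of the study nor of these data. In basal-LP barcodes 6 of the 11 were compared with the summed pair and 0 were called, with a median log2 ratio of -0.17. In basal-ML barcodes 3 were compared and 0 were called, with a median of -0.22. Csn1s2a, alpha-S2-casein, was at 35.8, 17.6 and 6 counts per basal-LP barcode against 81.8, 42.8 and 7 in reference LP cells. Kit, a receptor tyrosine kinase of luminal progenitors, was at 0.208, 0.125 and 0.143 counts per basal-LP barcode against 0.197, 0.179 and 0.205 in reference LP cells.

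Genes linked to stem cells and to epithelial-mesenchymal transition were mostly rare, apart from Sox9. The 8 genes of the list (Procr, Lgr5, Tspan8, Bcl11b, Sox9, Snai2, Zeb1 and Axl) summed to 3.79, 2.72 and 1.89 counts per mixed-marker barcode, against 0.967, 0.880 and 0.858 in reference basal cells. Reference LP cells held 2.17, 2.96 and 2.20 counts of the list and reference ML cells 2.80, 1.43 and 1.25. The mixed-marker barcodes were deeper than the basal cells, and in CPM the list was at 475, 377 and 239 against 267, 260 and 189. Zeb1, a transcription factor of that transition, had 0 counts at each stage, which allows up to 4.43, 14.3 and 10.9 CPM (3 counts of the summed counts). Lgr5, a Wnt-pathway receptor of stem cells, had 1, 2 and 1 counts. Procr, a surface receptor reported on multipotent basal cells, had 12, 0 and 1 counts. Sox9, a transcription factor that luminal cells also use, was the most frequent, with 235, 46 and 46 counts. It was at 3.07, 1.9 and 1.38 counts per basal-ML barcode, against 2.74, 1.32 and 1.18 in reference ML cells. In CPM the list stood at a log2 ratio of -0.29 ± 0.75 (SD, n = 3 libraries) to the summed pair with an LP partner and 0.20 ± 0.18 with an ML partner.

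Cell cycle transcripts were found in some of the barcodes at each stage. At least 3 of 10 cell cycle genes (Mki67, Top2a, Birc5, Ccnb1, Ccnb2, Cdk1, Cdc20, Aurkb, Cenpa and Ube2c) had a count in 10 of 85 barcodes in puberty (11.8%, 5.79 to 20.6%), 1 of 29 in estrus (3.45%, 0.0873 to 17.8%) and 6 of 35 in diestrus (17.1%, 6.56 to 33.6%). The shares in reference basal cells were 9.58%, 4.79% and 18.5%. Without thinning, pairs in which either cell had such counts would make up 15%, 9.05% and 30.2% with an LP cell and 17.4%, 12.8% and 25.7% with an ML cell. A summed pair can also reach 3 genes when neither cell does alone, so these shares are lower limits for pairs. The intervals hold the reference basal shares and these lower limits, which does not settle the share that pairs would have. In CPM the list stood at a log2 ratio of -0.97 ± 1.13 (SD, n = 3 libraries) to the summed pair with an LP partner and -0.64 ± 0.48 with an ML partner. The immediate early and heat shock genes (Fos, Jun, Egr1, Atf3, Hspa1a and Hspa1b) were at -0.17 ± 0.34 and 0.09 ± 0.12.

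Some genes that are high at 1 stage in a parent lineage were also counted in the mixed-marker barcodes of that stage. Calca, which encodes calcitonin, had 21 counts in 6 of the 35 diestrus barcodes (76.2 CPM, 47.2 to 116) and 0 counts in puberty and estrus, which allows up to 4.43 and 14.3 CPM. In diestrus basal-ML barcodes it was at 104 CPM, against 178 CPM in the summed pair. Id4, a basal inhibitor of DNA binding, had 26 counts in 12 of the 35 diestrus barcodes (94.3 CPM, 61.6 to 138), against 2 counts in puberty (2.95 CPM, 0.358 to 10.7) and 1 in estrus (4.77 CPM, 0.121 to 26.6). Reference basal cells held 10.2, 24.9 and 221 CPM of Id4. Summed pairs held 4.43 CPM of it in puberty and 11.1 in estrus with an LP cell, and 4.20 and 10.2 with an ML cell. Diestrus thus had the highest Id4 level in the mixed-marker barcodes as in the basal cells.

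Rspo1, a secreted enhancer of Wnt signalling, was counted only in diestrus among the mixed-marker barcodes, in 2 of the 7 basal-LP barcodes with 11 counts, 10 of them in 1 barcode. That gave 207 CPM (103 to 371), against 79.6 CPM in the summed pair. Tnfsf11, the cytokine RANKL, had 5 counts in 2 of the 26 diestrus basal-ML barcodes (26.0 CPM, 8.43 to 60.6), against 45.7 CPM in the summed pair. Wnt6, a basal Wnt ligand, was at 20.7, 38.2 and 32.6 CPM over all mixed-marker barcodes, against 88.9, 82.5 and 102 CPM in reference basal cells. Summed pairs held 39.0 CPM of Wnt6 in puberty and 38.6 in estrus with an LP cell, and 35.9 and 33.8 with an ML cell. Nrg1, a basal ERBB ligand, was at 35.4, 0 and 39.9 CPM, against 113, 31.1 and 36.0 CPM in reference basal cells, where puberty was highest, which was not seen in the mixed-marker barcodes at these counts. Summed pairs held 50.2 CPM of Nrg1 in puberty and 13.8 in estrus with an LP cell, and 45.6 and 12.9 with an ML cell. The 0 of Nrg1 in estrus allows up to 14.3 CPM.

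Of the markers of other cell types, those of immune cells had no counts and, among fibroblast markers, only Dcn was found in many barcodes. The 5 immune genes (Ptprc, Cd52, Laptm5, Tyrobp and Fcer1g) had 0 counts in all 149 barcodes. The 5 endothelial genes (Pecam1, Cdh5, Kdr, Esam and Cldn5) summed to 11.6, 18.5 and 18.8 CPM in basal-LP barcodes and 12.7, 6.98 and 5.19 in basal-ML barcodes, against 4.08, 10.3 and 4.69 in reference basal cells. These values rested on few counts. The basal-LP barcodes held 2 counts of Esam in 1 puberty barcode and 1 count of Pecam1 in each adult library. The basal-ML barcodes held 5 counts of Esam in 1 barcode and 1 of Pecam1 in puberty. In estrus they held 1 count of Esam and in diestrus 1 of Pecam1. All basal-LP values were below the 17.4, 55.6 and 56.5 CPM that 3 counts would give. The list was at a log2 ratio to the summed pair of 1.17 ± 0.26 (SD, n = 3 libraries) with an LP partner. With an ML partner it was at 1.04 ± 1.02. Nothing is read from these ratios. The 5 fibroblast genes (Col1a1, Col1a2, Col3a1, Pdgfra and Dcn) summed to 133, 37.0 and 0 CPM with an LP partner and 322, 112 and 561 with an ML partner, against 251, 308 and 243 in reference basal and 327, 242 and 771 in reference ML cells. Dcn, the matrix proteoglycan decorin, gave 179, 17 and 106 counts over all mixed-marker barcodes. Each of the other fibroblast genes had at most 1 count in a library. Dcn had a count in 37.9%, 25% and 61.5% of basal-ML barcodes, against 38.1%, 39.5% and 59.0% expected of pairs with an ML cell. The 4 hemoglobin genes reached 192 CPM in diestrus basal-ML barcodes, against 539 in reference ML cells and 291 in the summed pair. Hba-a1 gave 35 of these counts in the barcodes and Hba-a2 2, while Hbb-bs and Hbb-bt had 0. Mitochondrial transcripts had medians of 1.04%, 0.911% and 0.702% of the counts. The part of these other transcripts in the gene ratios was not tested.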

How the data were processed

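Per the labels, cells were captured with the 10X Chromium Single Cell 3' protocol, sequenced on an Illumina NextSeq 500 and processed with Cell Ranger 2.0 against mm10, per the submitters' processing notes. The deposited matrices hold raw counts per gene and barcode for 27998 genes, as the authors' pipeline wrote them; their barcode and gene lists gave the names. No cell filter was added, no doublet caller was run and no removal of doublets is stated. The members and lists were chosen with earlier results of these data known.

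Barcodes were grouped by the rule with Python 3.11.15, numpy 2.4.6, scipy 1.17.1 and pandas 2.3.3. Reference cells had 4 or more basal genes and under 3 genes of each luminal list, or the converse. All pairs of a reference basal and a reference luminal cell were enumerated and none was drawn. Gene ratios used counts summed over barcodes, 1 CPM added, and a floor of 50 CPM. For named genes outside the lists, the 5 in each direction whose smallest ratio over 3 libraries was largest were taken, with the same sign in all 3 and at least 20 counts in the barcodes or expected from the sum. Thinning to 2000 counts used hypergeometric probabilities. Shares have Clopper-Pearson and counts Poisson 95% intervals, for counting error only. Scripts were tested on simulated data. Gene positions are from GENCODE M21 (GRCm38, the assembly of mm10). Alternatives changed thresholds, depth, the puberty table, reference cells, filters and libraries.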

Additional observations from a re-analysis of the deposited data

Results flagged for a closer look

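The second puberty table entered no summary because it holds the cells of the first at lower depth. The same rule found 77 of its 5400 barcodes (1.43%, 1.13 to 1.78%), above the 0.0556% that a count of 0 would allow. All 85 mixed-marker barcodes of the first puberty table were present in it, and 74 of them passed the rule again, 72 with the same luminal partner. The median total of the members there was 4576 counts.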

How the results depend on the processing

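Of 166 values recomputed under alternatives, 124 stayed within the limits set for them and 42 moved. A change of direction was not scored. The share of mixed-marker barcodes depended most on the thresholds and on depth. It was 0.847%, 0.660% and 0.738% in puberty, estrus and diestrus when 5 basal and 4 luminal genes were required, and 1.09% in puberty and 0.697% in diestrus when 2 counts made a gene present. Thinning to 2000 counts gave 0.755%, 0.751% and 0.622%, of which the estrus value stayed within its limits. These shares are of barcodes with at least 2000 counts, which had 1.76%, 1.31% and 1.66% before thinning. The ML share among members was 81.5% in puberty after thinning, and in diestrus 94.4% under the stricter thresholds and 94.1% with 2 counts. The expected numbers after thinning were 6.75, 3.40 and 1.67 basal-LP and 29.7, 13.2 and 11.4 basal-ML barcodes. Reference luminal cells were then 721, 228 and 157 LP and 1824, 710 and 545 ML cells. Relative to random pairs, thinning gave 2.91% for basal-LP and 5.06% for basal-ML barcodes in puberty and 2.67% for basal-ML in diestrus, and the stricter thresholds gave 0.891% for basal-LP in diestrus.

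Genes called against the sum varied with the filter on low values. In basal-LP barcodes, the number higher was 1 with 5 CPM added, 11 at 20 CPM, 36 with no filter, 4 without cycling cells, 5 with the second puberty table and 10 to 60 when a library was left out, while the number lower was 29 at 20 CPM, 1612 with no filter, 4 without cycling cells and 16 to 46 when a library was left out. In basal-ML barcodes, higher genes numbered 11 with no filter and 1 to 2 when a library was left out, and lower genes 3, 412 and 1 to 7 at 20 CPM, with no filter and when a library was left out. A minimum of 20 counts, chosen after seeing the data, gave 0 in each of the 4 counts.

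Thinning gave a Krt14 share of 78.9% in puberty and a share with cell cycle transcripts of 4.97% in puberty, and Mki67 alone gave 0 in estrus. All 26 values restricted to cells under 10% mitochondrial counts, all 14 with stricter reference cells and 17 of 18 with the second puberty table kept within their limits. The cause of the changes was not tested. No paired analysis was possible because the stages have 1 library each and no test was run. Whether a barcode held 1 cell or 2 was not tested, and the 7 and 8 basal-LP barcodes of the adult libraries limit the precision of every gene value there.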
